A study of Mus musculus with 12 samples.

Results

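The genes described here are 50 mouse genes that encode the extracellular matrix, the enzymes that process it, and proteins of hepatic stellate and mural cells. They were chosen by name, with earlier results of these data known. Of the 50, 48 were measured by a probe set that names 1 gene, out of 18193 genes measured in that way, and Fbn1 (fibrillin) and Loxl2 (a matrix cross-linking oxidase) had no such probe set here. By role, 8 of the 48 were fibrillar and microfibrillar collagens, 9 were basement membrane genes, 11 were glycoproteins and proteoglycans, 9 were remodelling enzymes and their inhibitors, and 11 were stellate and mural cell genes. Total RNA was measured on 1 Affymetrix array per sample in 6 spontaneous hepatocellular carcinomas (HCC) and in 6 normal livers that served as controls. All samples came from B6C3F1 mice, a hybrid stock used in carcinogenicity bioassays, that were 2 years old and untreated in both groups. Sex, batch and pairing are not stated in the labels, which also do not say whether each sample came from a separate mouse, so the p-values measure the spread between these samples.

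Liver matrix has a basement membrane form, built on type IV collagen, laminins and nidogens, and an interstitial form, built on fibrils of types I, III and V collagen with proteoglycans bound to them. The stellate cell lies between hepatocytes and the sinusoidal endothelium, stores retinyl esters when quiescent, and after injury becomes a contractile cell that makes fibrillar collagen. Metalloproteinases cut matrix proteins, the TIMP proteins inhibit them, and lysyl oxidases cross-link collagen and elastin.

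A level below is the log2 of the intensity plus 16 after the arrays were brought to 1 distribution, for the brightest probe set of a gene, so that 1 unit is a doubling. The added 16 sets a floor at a level of 4, and differences of genes near it understate the change. A difference is the HCC mean minus the normal mean. "Rose" and "fell" are used of differences with an adjusted p under 0.05 by limma with Benjamini-Hochberg adjustment over all 18193 genes. Levels of different genes come from different probe sets and are not set against each other. In these pieces of whole tissue, fewer cells of a type and less RNA per cell cannot be told apart.

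The arrays had been scaled to the same trimmed mean, and 14.2% to 18.1% of their probe sets lay under an intensity of 16. Albumin, which marks hepatocytes, was at 15.43 ± 0.10 in normal liver and 15.50 ± 0.09 in HCC (SD, n = 6 each), and 1 of 7 measured hepatocyte markers, Tat, passed the test (-1.14, limma adjusted p = 0.0369). Pck1 and Cps1 differed by -1.44 and -0.86 (limma adjusted p = 0.198 and 0.177). Albumin, Ttr, Apoa1 and Apoa2 were between 15.43 and 16.06 in normal liver, near the top of the scale, where a rise can show little. The mean of the 7 relative to normal liver was -1.22, -0.49, 0.01, -0.94, 0.04 and -0.21 in HCC 1 to 6, lowest in HCC 1 and HCC 4, which also had the lowest Lrat and Dcn; its part in the results was not tested. Signal of Y-linked genes was present in 4 samples of each group and near the floor in the others, which were normal 1, normal 3, HCC 1 and HCC 4. In 0 of 48 members did the interaction of group and that signal pass the limma test, against 28 genes of 18193. The lowest adjusted p was 0.108, for Reln, and 4 members had an unadjusted p under 0.05. With only 2 arrays per group without the signal, the test cannot exclude a dependence.

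Among the members, 11 rose in HCC (6.48% of all genes did), 3 fell (7.24% of all genes did), and 34 did not pass the test. The 11 were Nid1, Col4a1, Col4a2, Col1a1, Sparc, Tnc, Fn1, Mmp12, Timp1, Mmp14 and Vim, and the 3 were Lrat, Dcn and Hgf. In 6 members every HCC lay above every normal liver (4.25% of all genes), and in 1, Lrat, every HCC lay below (4.5% of all genes). The median difference over the 48 was 0.60, beside -0.04 over all genes. At an unadjusted p under 0.05 in the limma fit, 17 members were higher and 3 lower, beside 2338 and 2856 of all 18193 genes. Unadjusted counts of the same fit given below for single lists are to be read beside these.

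The tumour HCC 6 stood apart in these genes, so that results are given with it and without it. HCC 6 was the highest of the 6 tumours in 41 of 48 members (85.4%), whereas it was the highest in 18.5% of all genes. In 34 members (70.8%) it exceeded the next tumour by at least 1 log2 unit, which was so for 2.51% of all genes. Its mean correlation with the other tumours over all genes was 0.931, the lowest of the 6, whose range was 0.931 to 0.940. Without HCC 6 the median difference of the members was 0.20, and 5 members changed sign (Col5a1, Col6a2, Lox, Tagln and Pdgfrb, none of which passed the test). The count of members that rose was still 11 (5.4% of all genes) and of those that fell 3 (5.79% of all genes). Tnc (adjusted p = 0.0632) and Hgf (adjusted p = 0.0513) no longer passed in that limma fit, and Col5a2 (difference 1.64, adjusted p = 0.0392) and Des (-1.33, adjusted p = 0.0374) did.

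**Figure D1:**
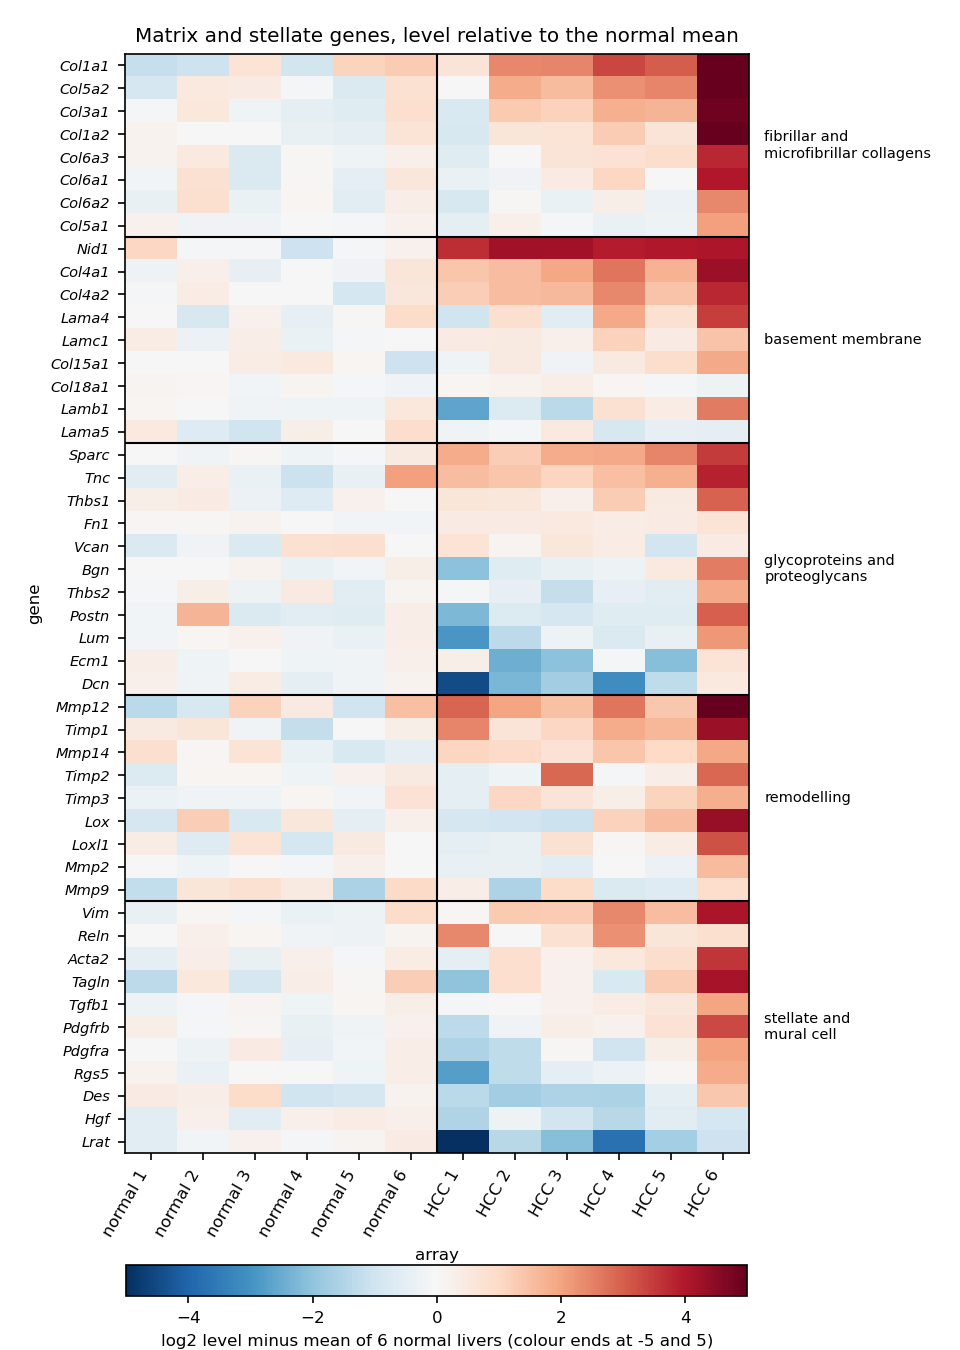
Log2 level of the 48 measured genes (rows, by role) on each of 12 arrays (columns) minus the mean of the 6 normal livers; red is higher, blue lower, and the colours saturate at both ends of the scale. The HCC 6 column is the reddest in most rows, with Nid1, Col18a1, Lama5, Vcan, Mmp9, Reln and Hgf as the 7 rows in which another tumour is highest.

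At the other end, HCC 1 was the lowest tumour in 30 of 48 members (62.5%, against 15.9% of all genes), and in 28 members HCC 6 was highest while HCC 1 was lowest (4.77% of all genes). HCC 1 lay below every normal liver in 20 members (24.1% of all genes) and above every normal liver in 11 (22.2% of all genes). HCC 6 lay above in 42 members (24.8% of all genes) and below in 3 (30% of all genes), namely Col18a1, Lrat and Hgf. The other tumours lay above every normal liver in 18 members for HCC 2 (20.1% of all genes), 15 for HCC 3 (22.9%), 22 for HCC 4 (21.7%) and 23 for HCC 5 (20.8%). They lay below in 11 (21.8%), 12 (25.6%), 7 (26.4%) and 8 members (24.3%) in the same order. HCC 6 was often highest and HCC 1 often lowest also in other probe sets of the members, which the main values did not use. Of 67 such probe sets of 38 genes, HCC 6 was the highest tumour in 47 (70.1%, against 16.6% over all genes) and HCC 1 the lowest in 36 (53.7%, against 16.5%). Probe sets of 1 gene share its RNA and array, so they are no further replicates.

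**Figure D2:**
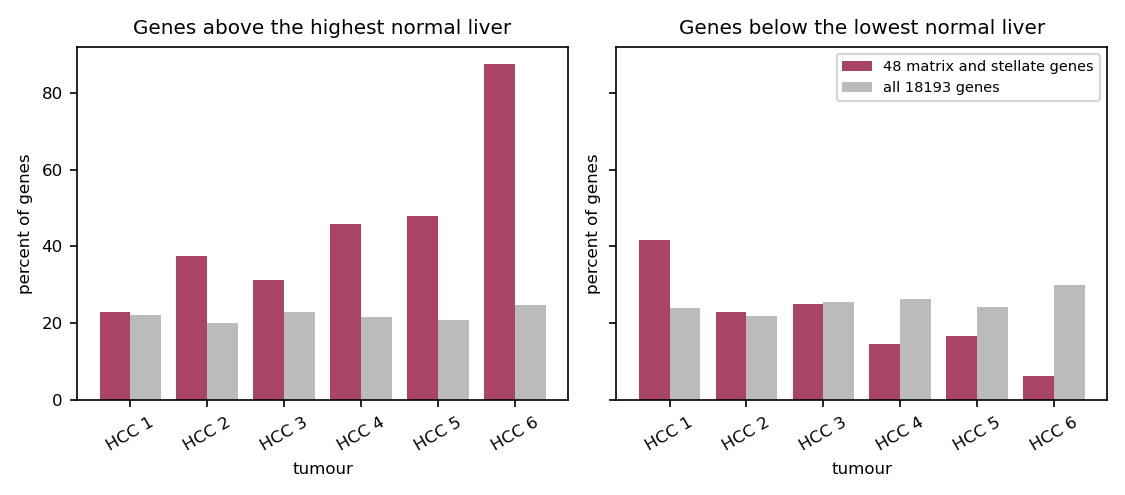
Percent of genes (y axis) in which each tumour lay above the highest normal liver (left) or below the lowest (right), for the 48 matrix and stellate genes (red) and all 18193 genes (grey). In HCC 6 the members stand at 87.5% above, and in HCC 1 at 41.7% below, beside 24.8% and 24.1% of all genes.

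The SD was larger in HCC than in normal liver in 41 of 48 members, with a median ratio of 2.79, and in 11769 of 18193 genes, with a median ratio of 1.25. The exceptions were Lama5, Nid1, Fn1, Tnc, Vcan, Mmp9 and Mmp14. Much of this rested on HCC 6: without it the SD was larger in HCC in 30 of 48 members, with a median ratio of 1.40, and in 11106 of 18193 genes, with a median ratio of 1.18.

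Of the 6 members in which every HCC lay above every normal liver, 3 were basement membrane genes (Nid1, Col4a1 and Col4a2). Of 9 basement membrane genes measured, 3 rose and none fell in the limma fit (4 and 0 at an unadjusted p under 0.05), with a median difference of 0.69 (0.40 without HCC 6). Nid1 encodes nidogen-1, which ties the laminin and collagen IV networks together. Its levels were 10.31, 9.19, 9.21, 8.24, 9.19 and 9.50 in normal livers 1 to 6, and 12.95, 13.46, 13.48, 13.20, 13.26 and 13.32 in HCC 1 to 6. All tumours were far above all normal livers and lay within a narrow band, in contrast to most members. Nid1 rose by 4.01 ± 0.27 (SE, 16.1-fold, limma adjusted p = 4.49e-06), from 9.27 ± 0.67 to 13.28 ± 0.19 (SD, n = 6 each), and the adjusted p without HCC 6 was 3.10e-05. The other probe sets of Nid1 gave differences of 3.19 and 1.76.

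Col4a1 and Col4a2 encode the chains of the main type IV collagen network. Col4a1 was between 9.23 and 10.23 in normal liver (median 9.54) and was 11.03, 11.16, 11.55, 12.32, 11.37 and 13.93 in HCC 1 to 6. Col4a2 was between 8.02 and 9.45 in normal liver (median 8.89) and was 10.10, 10.42, 10.49, 11.28, 10.31 and 12.67 in HCC 1 to 6. Both genes were lowest in HCC 1 and highest in HCC 6, and in both the groups did not overlap. Col4a1 rose by 2.26 ± 0.43 (SE, limma adjusted p = 0.00497) and by 1.85 without HCC 6 (adjusted p = 0.00106). Col4a2 rose by 1.99 ± 0.40 (SE, limma adjusted p = 0.00693) and by 1.64 without HCC 6 (adjusted p = 0.00331). They are neighbours on chromosome 8, transcribed from opposite strands, with annotated starts 21 bases apart in GRCm38.p6.

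**Figure D3:**
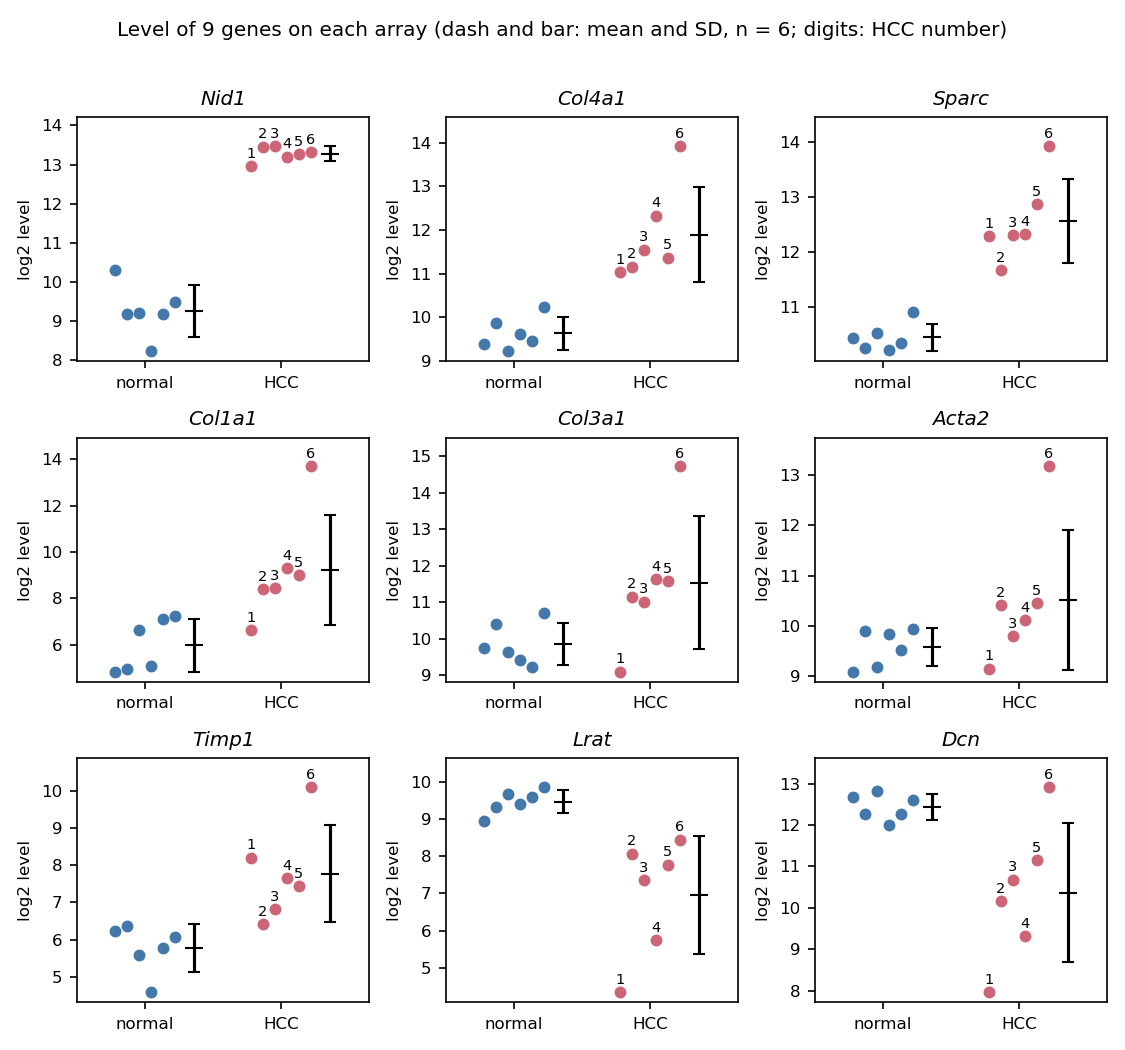
Log2 level (y axis) of 9 genes on each array, with normal livers in blue and HCC in red numbered 1 to 6; the dash and bar are mean and SD (n = 6). Nid1, Col4a1 and Sparc separate the groups in all tumours, whereas in Col1a1, Col3a1 and Acta2 HCC 6 lies far above the others and HCC 1 within or below the normal range.

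The other basement membrane genes did not pass the test. Lamc1, the gamma chain common to most laminins, came closest: 5 of 6 HCC lay above every normal liver, with a difference of 0.69 ± 0.23 (SE, limma adjusted p = 0.0646). It passed in the deposited scaling (adjusted p = 0.0342) and with dim genes left out (0.0361). It passed also with the mean of its probe sets (0.0292) and with a trended robust variance (0.0436), but not in the other settings. Lama4, a laminin chain of vessels, differed by 0.91 and Col15a1, a collagen at the basement membrane edge, by 0.55. In both HCC 6 was the highest array, at 9.99 for Lama4 and 9.31 for Col15a1, and without it the differences were 0.40 and 0.28. Lamb1 (a laminin beta chain) ranged from 5.04 in HCC 1 to 10.28 in HCC 6 around a normal range of 7.45 to 8.22. Its difference was -0.15 (-0.71 without HCC 6). Col18a1, whose protein is the precursor of endostatin and is made in quantity by liver, differed by 0.07, a value that turned below 0 with other scalings, and Lama5, a laminin alpha chain, by -0.24.

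Capillary endothelial cells lie on a basement membrane, and their markers are given beside this group. Of 7 such markers 2 rose (Esm1 by 3.81 and Cd34 by 2.38) and none fell, beside 6.48% and 7.24% of all genes. At an unadjusted p under 0.05 in the limma fit, 5 were higher and 0 lower. All 7 differences were above 0, with a median of 1.24 (0.98 without HCC 6). The list mean relative to normal liver was 0.28, 1.50, 1.02, 1.77, 1.34 and 2.67 in HCC 1 to 6. HCC 1 lay below normal 6, the highest normal liver at 0.60, and the other 5 tumours above it. The summed intensity of the 7 was 2132 to 3360 in normal liver and 2735 to 12257 in HCC. Of 9 sinusoidal endothelial markers none rose and 2 fell (limma, 0 higher and 3 lower at an unadjusted p under 0.05). The 2 were Clec4g and Stab2, with differences of -2.13 and -1.11. The sums of the 9 were 7217 to 12794 in normal liver and 5506 to 10920 in HCC. No marker of either list was near the floor in both groups, and the part of these cells in the basement membrane differences was not tested.

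The Nid1 promoter is shown because its gene had the largest difference of the members and separated all tumours. It covers the 250 bases before the RefSeq start, chr13:13437352-13437601 on the plus strand of GRCm38.p6. The capitals mark a CCAAT match on the opposite strand, 91 to 87 bases before the start, and a GGGCGG match, 67 to 62 bases before it.
Nid1: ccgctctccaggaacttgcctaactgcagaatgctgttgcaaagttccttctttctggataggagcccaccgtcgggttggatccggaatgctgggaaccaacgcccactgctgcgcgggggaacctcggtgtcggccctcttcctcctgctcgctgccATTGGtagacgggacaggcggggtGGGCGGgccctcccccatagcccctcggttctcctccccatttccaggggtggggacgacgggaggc
Of the 50 members, 35 had 41 RefSeq windows, each reaching from 250 bases before a start to 50 after it. On either strand CCAAT was in 16 of the 41 (39.0%, against 37.4% of all 32851 windows), GGGCGG in 24 (58.5%, against 35.7%), TATAAA in 8 (19.5%, against 13.6%) and TGANTCA in 3 (7.32%, against 7.81%). A match describes letters in a window and is not a measured binding site.

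Fibrillar and microfibrillar collagens were high in HCC 6 and mixed elsewhere. All 8 had a difference above 0, but 1, Col1a1, passed the limma test (3 at an unadjusted p under 0.05), and the median difference of 1.10 became 0.41 without HCC 6. All 8 were highest in HCC 6 and lowest in HCC 1 among the tumours. Relative to normal liver their mean was -0.39, 0.79, 0.82, 1.30, 1.03 and 4.51 in HCC 1 to 6, in that order.

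Col1a1 encodes the main chain of type I collagen, the chief collagen of scar. Its levels were 4.83, 4.94, 6.64, 5.07, 7.09 and 7.25 in normal livers 1 to 6, and 6.62, 8.38, 8.43, 9.29, 8.99 and 13.70 in HCC 1 to 6. HCC 2 to 6 lay above every normal liver and HCC 1 within their range. Col1a1 rose by 3.27 ± 0.96 (SE, 9.62-fold, limma adjusted p = 0.0408), and by 2.37 without HCC 6 (adjusted p = 0.0262). The call was lost without any 1 of normal 1 to 5 or HCC 3, 4 or 5 (adjusted p from 0.0525 to 0.0832), and with a trended robust variance (0.0529) or the mean of both probe sets (2.30, adjusted p = 0.0645).

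Col5a2, a chain of the type V collagen that starts fibrils, was between 6.09 and 7.68 in normal liver (median 7.10) and was 6.89, 8.80, 8.53, 9.23, 9.37 and 12.88 in HCC 1 to 6. Its difference was 2.36 ± 0.76 (SE, limma adjusted p = 0.0588). It passed in some other settings, among them the deposited scaling (adjusted p = 0.0483), dim genes left out (0.0360) and array weights (0.0433). Col3a1, the type III chain that accompanies type I in fibrils, was between 9.23 and 10.70 in normal liver (median 9.68) and was 9.09, 11.15, 11.01, 11.64, 11.57 and 14.72 in HCC 1 to 6. In both genes 5 tumours lay above every normal liver and HCC 1 did not. The difference of Col3a1 was 1.68 ± 0.70 (SE, limma adjusted p = 0.134), and 1.04 without HCC 6. Col3a1 and Col5a2 are neighbours on chromosome 1.

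Col1a2, the second chain of type I collagen, was at 14.19 in HCC 6, which was 4.02 above the next tumour, and between 8.11 and 10.17 in the others. Normal livers were between 8.43 and 9.58, and the difference of 1.28 ± 0.78 (SE, limma adjusted p = 0.309) became 0.48 without HCC 6. Other probe sets of Col1a2 gave differences of 1.96 and, near the floor, 0.03. On the former HCC 2 to 6 were at 7.83, 7.85, 9.08, 8.05 and 13.29, above the highest normal liver at 7.32. Among the chains of microfibrillar type VI collagen, Col6a3 differed by 0.91, Col6a1 by 0.83 and Col6a2 by 0.22, and by 0.34, 0.19 and -0.21 without HCC 6. All of them were within or near the normal range in HCC 1 to 5 and were 12.17, 11.54 and 10.99 in HCC 6, where the highest normal livers were 8.87, 8.28 and 9.41. The other probe set of Col6a2 gave a difference of 1.68, with HCC 4 at 9.13 and HCC 6 at 11.89 above the highest normal liver at 8.52. Col5a1 differed by 0.20 (-0.18 without HCC 6) and stood at 10.42 in HCC 6, with every other array between 7.93 and 8.60.

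Type I and III collagen promoters are shown because both genes were high in the same tumour, HCC 6. The Col1a2 stretch is chr6:4505368-4505617 and the Col3a1 stretch chr1:45311288-45311537, both on the plus strand of GRCm38.p6 and ending 1 base before the RefSeq start. Capitals mark GGGCGG (205 to 200 and 188 to 183 bases before the start) and CCAAT (109 to 105) in Col1a2, and TATAAA (117 to 112) in Col3a1.
Col1a2: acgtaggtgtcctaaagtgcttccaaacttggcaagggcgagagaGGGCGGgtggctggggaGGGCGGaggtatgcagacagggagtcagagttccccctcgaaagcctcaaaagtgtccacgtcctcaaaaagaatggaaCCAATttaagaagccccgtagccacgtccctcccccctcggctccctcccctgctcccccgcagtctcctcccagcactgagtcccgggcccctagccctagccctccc
Col3a1: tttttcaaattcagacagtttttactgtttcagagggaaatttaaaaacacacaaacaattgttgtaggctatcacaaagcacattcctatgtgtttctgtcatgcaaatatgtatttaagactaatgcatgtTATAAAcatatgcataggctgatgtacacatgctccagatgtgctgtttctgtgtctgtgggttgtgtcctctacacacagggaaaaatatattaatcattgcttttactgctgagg
No motif of the 4 searched was found in both windows.

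Markers of activated stellate cells and myofibroblasts, a list that holds several of the members, were on average highest in HCC 6 and lowest in HCC 1. Of 12, 3 rose (Col1a1, Timp1 and Vim) and none fell in the limma fit (4 and 0 at an unadjusted p under 0.05), with a median difference of 0.81 that became 0.21 without HCC 6. The list mean relative to normal liver was -0.50, 0.42, 0.54, 0.90, 0.99 and 3.96 in HCC 1 to 6. The summed intensity was 4397 to 8504 in normal liver and 3707 to 106704 in HCC, where the highest sum without HCC 6 was 14894. Of 8 portal fibroblast markers 1 rose and none fell in the limma fit (3 and 0 at an unadjusted p under 0.05). The 1 was Cd34, which is also on the capillary endothelial list given above. The portal list mean was 1.71 in HCC 6. None of 6 smooth muscle markers passed the test (limma, 0 also at an unadjusted p under 0.05), with a list mean of 1.44 in HCC 6. The summed intensity was 2019 to 2713 in normal liver and 1499 to 5980 in HCC for the portal list, in which Mfap4 was near the floor in both groups. For the smooth muscle list it was 1597 to 1910 in normal liver and 1121 to 3298 in HCC. Of 6 mesothelial markers none passed either (limma, 0 also unadjusted), with sums of 322 to 652 in normal liver and 265 to 791 in HCC. What share of the collagen RNA came from each of these cells was not tested.

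**Figure D4:**
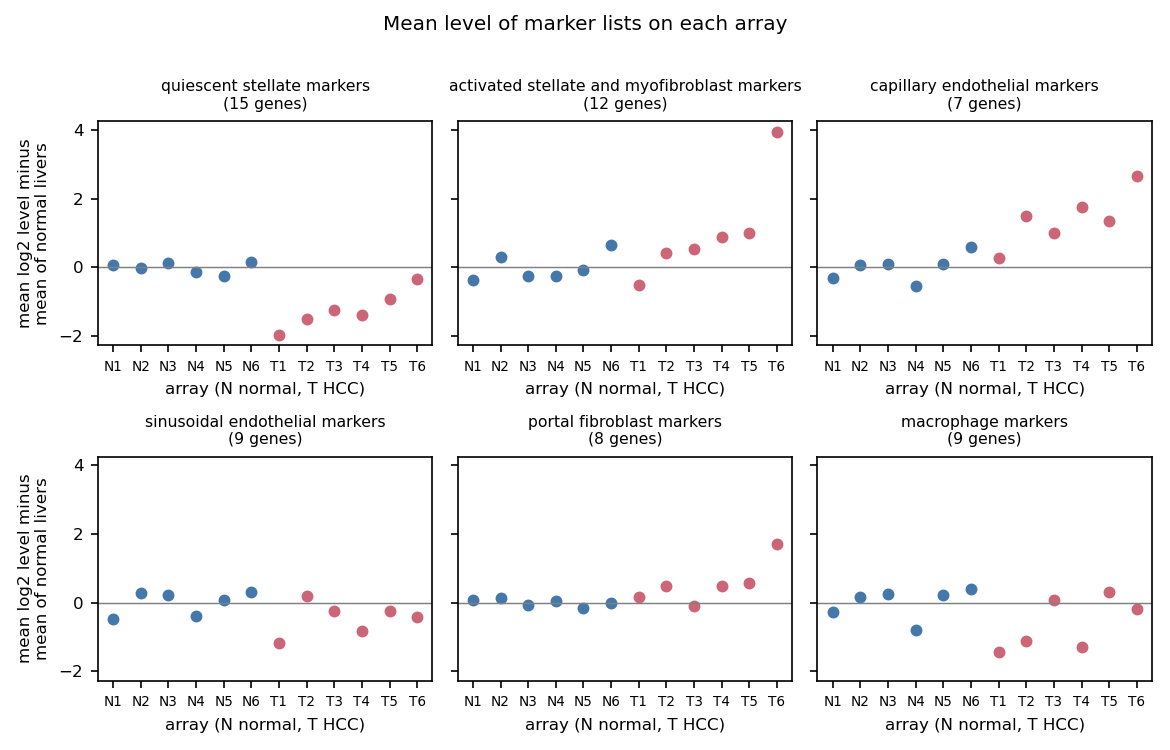
Mean log2 level of 6 marker lists (panels) on each array (x axis, N for normal liver and T for HCC), minus the mean of the normal livers. The quiescent stellate list lies below the normal livers in all 6 HCC, from -1.97 to -0.34, while the activated list reaches 3.96 in HCC 6 and stays between -0.50 and 0.99 in HCC 1 to 5.

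Glycoproteins and proteoglycans were divided. Of 11 measured, 3 rose (Sparc, Tnc and Fn1) and 1 fell (Dcn), beside 6.48% and 7.24% of all genes. At an unadjusted p under 0.05 in the limma fit, 4 were higher and 1 lower. Differences were above 0 in 5 and below 0 in 6. The median difference was -0.04 (-0.52 without HCC 6). Sparc, a collagen-binding glycoprotein of remodelling tissue, was between 10.22 and 10.90 in normal liver (median 10.38) and was 12.29, 11.67, 12.31, 12.32, 12.87 and 13.93 in HCC 1 to 6. Each tumour lay above each normal liver. Sparc rose by 2.12 ± 0.31 (SE, 4.36-fold, limma adjusted p = 0.00102), and by 1.85 without HCC 6 (adjusted p = 0.000346).

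Fn1, fibronectin, is secreted into plasma by hepatocytes and also laid down in matrix. It was between 14.25 and 14.56 in normal liver (median 14.41) and between 14.78 and 15.07 in HCC (median 14.80). The shift was small but the groups did not overlap: Fn1 rose by 0.46 ± 0.11 (SE, 1.38-fold, limma adjusted p = 0.0170), and by 0.42 without HCC 6 (adjusted p = 0.0304). With the mean of both its probe sets the adjusted p was 0.0514.

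Tnc, tenascin-C, an adhesion-modulating glycoprotein of wounds and tumour stroma, was between 4.61 and 7.72 in normal liver, with a median of 5.33. It was 7.22, 7.09, 6.75, 7.19, 7.47 and 9.55 in HCC 1 to 6. Normal 6 lay above 5 of the tumours, and the other normal livers lay below all 6. Tnc rose by 1.86 ± 0.55 (SE, limma adjusted p = 0.0409), a call lost without any 1 of normal 1 to 5 or HCC 1, 4, 5 or 6 (adjusted p from 0.0545 to 0.0875). It was lost also with a pseudocount of 64 (adjusted p = 0.0526) and with array weights (0.0668).

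Dcn encodes decorin, a proteoglycan that coats collagen fibrils and binds TGF-beta. It was between 11.99 and 12.83 in normal liver (median 12.43) and was 7.97, 10.16, 10.68, 9.32, 11.16 and 12.92 in HCC 1 to 6. HCC 1 to 5 lay below every normal liver and HCC 6 above every one. Dcn fell by 2.07 ± 0.63 (SE, log2 units, limma adjusted p = 0.0463), and by 2.58 without HCC 6 (adjusted p = 0.00590). The call was lost without any 1 of the 6 normal livers or HCC 1 to 4 (adjusted p from 0.0599 to 0.0926). It was lost also with a pseudocount of 1 (0.0583) and with a trended robust variance (0.0608). Its neighbour on chromosome 10, Lum, encodes lumican of the same proteoglycan family and showed a like order: 6.87 in HCC 1, 8.46 to 9.49 in HCC 2 to 5 and 11.93 in HCC 6, with normal livers between 9.44 and 10.09. Lum differed by -0.57 ± 0.61 (SE, limma adjusted p = 0.597), and by -1.12 without HCC 6.

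The remaining genes of the group did not pass the test. Biglycan (Bgn), another small proteoglycan, was 9.14 in HCC 1 and 13.77 in HCC 6 around normal levels of 10.86 to 11.49, with a difference of -0.04 (-0.56 without HCC 6). Periostin (Postn), a matricellular protein of activated fibroblasts, was 12.86 in HCC 6 and between 7.62 and 9.24 in the other tumours, where normal livers were between 9.13 and 11.56. Its difference was -0.33, and -0.997 without HCC 6. Thbs1, thrombospondin-1, was above every normal liver in 5 tumours, with a difference of 1.02 ± 0.40 (SE, limma adjusted p = 0.117) that became 0.63 without HCC 6, and Thbs2 differed by -0.12 (-0.52 without HCC 6). Vcan (versican) differed by 0.20. Ecm1 differed by -0.95 and split the tumours: HCC 2, 3 and 5 were at 9.51, 9.91 and 9.81, while HCC 1, 4 and 6 were at 12.22, 11.87 and 12.63, within or above the normal range of 11.73 to 12.29.

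Among the remodelling genes 3 of 9 rose and none fell in the limma fit (4 and 0 at an unadjusted p under 0.05), with a median difference of 0.73 (0.49 without HCC 6). Mmp12, the elastase typical of macrophages, was 4.55, 5.10, 7.05, 6.32, 4.90 and 7.40 in normal livers 1 to 6, and 8.81, 7.85, 7.34, 8.58, 7.24 and 12.66 in HCC 1 to 6. HCC 3 and HCC 5 lay within the normal range and the other 4 tumours above it. Mmp12 rose by 2.86 ± 0.86 (SE, limma adjusted p = 0.0442), and by 2.08 without HCC 6 (adjusted p = 0.0330). The call was lost without any 1 of normal 1 to 5, HCC 1 or HCC 4 (adjusted p from 0.0502 to 0.0913), with a pseudocount of 64 (0.0567), a trended robust variance (0.0503) or Y-linked signal as a covariate (0.0539). Of 9 macrophage markers none rose and 2 fell, Clec4f and Timd4, with differences of -2.36 and -2.11 (limma; 1 higher and 3 lower at an unadjusted p under 0.05). Their list mean was -1.45, -1.12, 0.08, -1.28, 0.30 and -0.18 in HCC 1 to 6. Their sums were 7401 to 17709 in normal liver and 4514 to 26396 in HCC, none was near the floor in both groups, and their part in the Mmp12 difference was not tested.

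Timp1, an inhibitor of metalloproteinases induced in injured liver, was between 4.59 and 6.37 in normal liver (median 5.93) and was 8.20, 6.42, 6.82, 7.64, 7.44 and 10.10 in HCC 1 to 6. The groups did not overlap, although HCC 2 was only just above normal 2. Timp1 rose by 2.00 ± 0.54 (SE, 4.01-fold, limma adjusted p = 0.0270), and by 1.54 without HCC 6 (adjusted p = 0.0226), and was lost without normal 3, normal 4, normal 5 or HCC 1 (adjusted p from 0.0509 to 0.0608).

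Mmp14, a membrane-bound collagenase that also activates pro-Mmp2, was between 9.18 and 10.76 in normal liver (median 9.83) and was 11.02, 10.93, 10.69, 11.35, 10.94 and 11.89 in HCC 1 to 6. HCC 3 lay within the normal range and the other 5 tumours above it. Mmp14 rose by 1.18 ± 0.29 (SE, limma adjusted p = 0.0187), and by 1.03 without HCC 6 (adjusted p = 0.0377).

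Other remodelling genes did not pass the test. Mmp2, the gelatinase that Mmp14 activates, differed by -0.01, a value that turned above 0 with other scalings, and Mmp9, the other gelatinase, by -0.13. Timp3 differed by 0.73 and Timp2 by 0.89 (0.52 and 0.49 without HCC 6). Timp2 was at 11.75 in HCC 3 and 11.78 in HCC 6, and between 8.39 and 9.24 in the other tumours, beside 8.23 to 9.36 in normal liver. The cross-linking oxidases Lox and Loxl1 differed by 0.69 and 0.59, and by -0.04 and 0.06 without HCC 6, in which they were at 10.00 and 10.08 beside highest normal levels of 6.88 and 7.58.

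**Figure D5:**
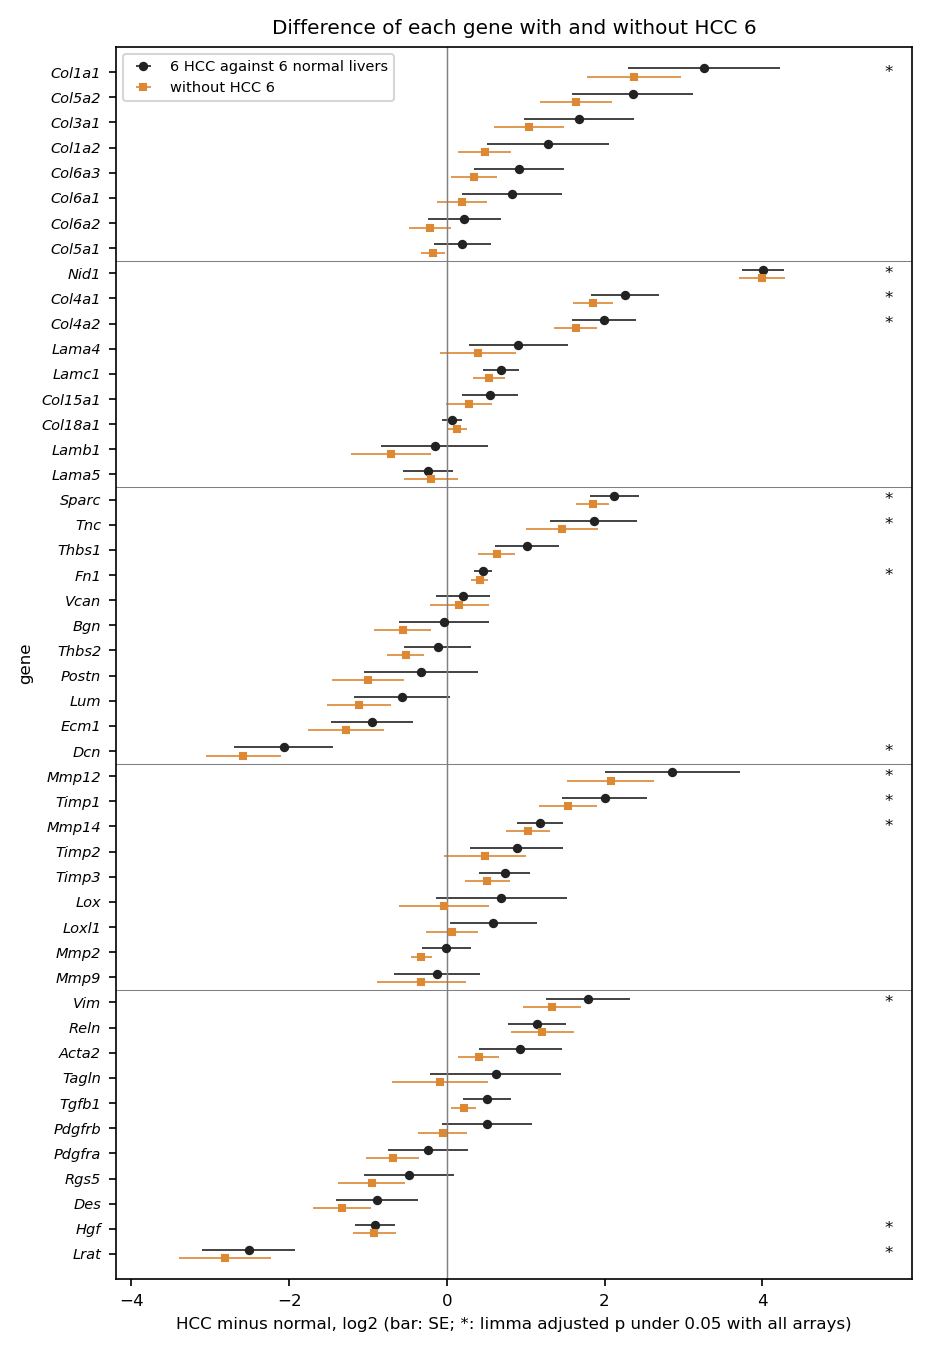
HCC minus normal difference of the 48 genes on the log2 scale (x axis, bars are SE), with all 12 arrays (black circles) and without HCC 6 (orange squares); stars mark an adjusted p under 0.05 with all arrays. The Nid1 points coincide near 4.01, while most other points move to the left without HCC 6, as Col1a1 from 3.27 to 2.37.

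Stellate and mural cell genes were divided. Of 11 measured, 1 rose (Vim) and 2 fell (Lrat and Hgf), beside 6.48% and 7.24% of all genes. At an unadjusted p under 0.05 in the limma fit, 2 were higher and 2 lower. Differences were above 0 in 6 and below 0 in 5. The median difference of 0.51 became -0.08 without HCC 6. Lrat encodes the enzyme that makes retinyl esters in quiescent stellate cells. It was 8.95, 9.32, 9.67, 9.41, 9.59 and 9.87 in normal livers 1 to 6, and 4.35, 8.07, 7.36, 5.74, 7.77 and 8.44 in HCC 1 to 6. Every tumour lay below every normal liver, HCC 1 near the floor of the scale and HCC 6 highest among them. Lrat fell by 2.52 ± 0.60 (SE, log2 units, 5.72-fold, limma adjusted p = 0.0150), and by 2.81 without HCC 6 (adjusted p = 0.0107). Its other probe set gave a difference of -1.73.

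Hgf, the hepatocyte growth factor that stellate cells secrete, was between 7.34 and 8.28 in normal liver (median 8.16) and was 6.43, 7.66, 7.01, 6.54, 7.34 and 7.03 in HCC 1 to 6. HCC 2 lay inside the normal range and the other 5 tumours below it, HCC 5 only just. Hgf fell by 0.91 ± 0.25 (SE, log2 units, limma adjusted p = 0.0298), a call lost without any 1 of normal 2, 4, 5 or 6 or HCC 1, 4 or 6 (adjusted p from 0.0513 to 0.0666). It was lost also in the deposited scaling (-0.79, adjusted p = 0.0616) and with the mean of its probe sets (-0.78, adjusted p = 0.104).

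Reln, reelin, a glycoprotein that stellate and lymphatic endothelial cells make, went the other way from Lrat. It was between 11.29 and 11.79 in normal liver (median 11.56) and was 13.94, 11.58, 12.28, 13.81, 12.15 and 12.34 in HCC 1 to 6. Thus HCC 1 and HCC 4, the tumours with the lowest Lrat, had the highest Reln, and HCC 2 was within the normal range. HCC 1 and HCC 4 are also the 2 tumours with Y-linked signal near the floor. Between arrays with that signal the difference of Reln was 0.56, and between arrays without it 2.31 (limma interaction, adjusted p = 0.108). For Lrat these differences were -1.64 and -4.27 (adjusted p = 0.145), and for Dcn -1.05 and -4.11 (adjusted p = 0.312), so that none of the 3 interactions passed the limma test after adjustment. The difference of Reln over all arrays was 1.14 ± 0.37 (SE, limma adjusted p = 0.0575), and 1.49 on its other probe set. It passed with Y-linked signal as a covariate (adjusted p = 0.0218), a pseudocount of 64 (0.0424) or array weights (0.0422). It passed also with dim genes left out (0.0342), with the mean of its probe sets (0.0136) and without HCC 2 (0.0208), but not in the other settings.

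Most quiescent stellate markers fell in HCC. Of 15 measured, which include Lrat, Hgf, Reln, Rgs5, Des and Ecm1, none rose and 9 fell, beside 7.24% of all genes that fell (limma; 1 higher and 9 lower at an unadjusted p under 0.05). The median difference was -1.39, and the largest falls were those of Colec10 (-3.22), Lrat and Vipr1 (-2.21), with limma adjusted p of 0.000185 for Colec10 and 0.00357 for Vipr1. Hand2, a transcription factor of stellate cells, fell by 1.92. The list mean relative to normal liver was -1.97, -1.50, -1.23, -1.38, -0.91 and -0.34 in HCC 1 to 6, below the lowest normal liver at -0.24 in each tumour. The summed intensity was 16111 to 21657 in normal liver and 7824 to 29100 in HCC, and no marker was near the floor in both groups. Without HCC 6, 9 of 15 fell, with Des among them in place of Hgf, and the median difference was -1.33.

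The Lrat promoter is shown because Lrat was the member that fell in all 6 tumours. It is chr3:82903975-82904224 on the minus strand of GRCm38.p6, printed in the direction of transcription. Capitals mark CCAAT (81 to 77 bases before the start) and GGGCGG on the opposite strand (45 to 40 bases before it).
Lrat: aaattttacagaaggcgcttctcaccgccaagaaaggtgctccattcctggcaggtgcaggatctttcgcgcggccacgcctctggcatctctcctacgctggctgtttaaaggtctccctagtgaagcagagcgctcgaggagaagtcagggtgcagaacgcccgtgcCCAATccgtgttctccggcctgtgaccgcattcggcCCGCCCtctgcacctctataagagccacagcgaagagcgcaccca
The Lrat and Nid1 windows both held CCAAT and GGGCGG, which were in 37.4% and 35.7% of all windows. A link of either motif to the differences was not tested.

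Genes of the contractile and mesenchymal state were high in HCC 6. Vim, vimentin, the intermediate filament of mesenchymal cells, was 10.07, 10.53, 10.35, 10.12, 10.20 and 11.35 in normal livers 1 to 6, and 10.51, 11.75, 11.71, 12.85, 11.99 and 14.52 in HCC 1 to 6. HCC 2 to 6 lay above every normal liver. Vim rose by 1.79 ± 0.53 (SE, limma adjusted p = 0.0416), and by 1.33 without HCC 6 (adjusted p = 0.0388). The call was lost without any 1 of normal 1 to 5 or HCC 3, 4 or 5 (adjusted p from 0.0525 to 0.0821), and also with a trended robust variance (0.0511), a pseudocount of 1 (0.0516) or the mean of its probe sets (0.0523).

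Acta2, the smooth muscle actin of activated stellate cells, did not pass the test. It was between 9.10 and 9.95 in normal liver and was 9.16, 10.42, 9.79, 10.11, 10.45 and 13.17 in HCC 1 to 6, with a difference of 0.93 ± 0.53 (SE, limma adjusted p = 0.275) and 0.40 without HCC 6. Tagln, another contractile protein, ranged from 4.87 in HCC 1 to 11.01 in HCC 6 and differed by 0.62, and by -0.084 without HCC 6. Tgfb1, the growth factor that drives collagen synthesis, was 10.02 in HCC 6 and between 7.94 and 8.58 in the other tumours, beside 7.79 to 8.33 in normal liver, with a difference of 0.51 (0.22 without HCC 6).

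The receptors and pericyte genes showed no called difference. Pdgfrb, the receptor of stellate cells and pericytes for platelet-derived growth factor, was 7.57 in HCC 1 and 12.20 in HCC 6, with normal livers between 8.50 and 9.18 and a difference of 0.51 (-0.053 without HCC 6). On its other probe set the difference was 1.35. There HCC 3 to 6 were at 6.76, 7.15, 7.30 and 9.60, above the highest normal liver at 5.72, and HCC 1 and HCC 2 were within the normal range. Pdgfra differed by -0.24 and Rgs5, a pericyte regulator of G protein signalling, by -0.48, and both were above every normal liver in HCC 6, without which they differed by -0.69 and -0.95. Des, desmin, a muscle filament of quiescent stellate cells, was between 5.01 and 6.28 in HCC 1 to 5 and 8.08 in HCC 6, where normal livers were between 5.75 and 7.68. Its difference was -0.89 with all arrays (limma adjusted p = 0.288).

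Related genes that are not members, 119 in 5 lists of which 113 were measured, gave 14 that rose and 5 that fell (6.48% and 7.24% of all genes), with a median difference of 0.16 (12 and 8 without HCC 6). Of 20 integrins and matrix receptors 2 rose and none fell (limma; 5 and 0 at an unadjusted p under 0.05). Ddr1, a collagen receptor kinase, was between 6.11 and 7.57 in normal liver and 10.46 and 12.42 in HCC and rose by 4.42 ± 0.40 (SE, limma adjusted p = 4.10e-05). Itga6, an integrin chain that binds laminin, rose by 2.32 (limma adjusted p = 0.0129).

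Of 20 genes of the TGF-beta pathway and its targets 4 rose and 1 fell. The type II receptor Tgfbr2 rose by 2.27 ± 0.32 (SE, limma adjusted p = 0.000815), the ligand Tgfb2 by 1.92 (adjusted p = 0.0174) and the endothelial receptor Acvrl1 by 1.38 (adjusted p = 0.0157), while all 6 HCC were above all normal livers for Tgfbr2 and Acvrl1. The inhibitory Smad6 fell by 1.24 (adjusted p = 0.00773).

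Of 26 other proteases and inhibitors 4 rose and 1 fell. Plat, tissue plasminogen activator, was between 5.69 and 6.96 in normal liver and was 14.18, 7.82, 8.58, 13.14, 9.22 and 13.36 in HCC 1 to 6. Plat rose by 4.55 ± 1.04 (SE, limma adjusted p = 0.0129) and was highest in HCC 1, 4 and 6. The collagenase Mmp13 rose by 2.59 (limma adjusted p = 0.0133) and the cross-linking transglutaminase Tgm2 by 1.18 (limma adjusted p = 0.0310).

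Of 16 enzymes of collagen processing 3 rose and 1 fell. Crtap and Ppib, which act together in prolyl hydroxylation of collagen, rose by 0.98 (limma adjusted p = 0.0157) and 0.69 (limma adjusted p = 0.00537), and the procollagen proteinase Bmp1 fell by 0.71 (limma adjusted p = 0.00410). Of 31 further matrix proteins 1 rose, the basement membrane collagen chain Col4a5 (by 1.60, limma adjusted p = 0.0462), and 2 fell, the fibulin family member Efemp1 (-2.05, limma adjusted p = 0.0383) and the small proteoglycan Ogn (-1.39, limma adjusted p = 0.0496).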

How the data were processed

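Values were the intensity of 45101 probe sets on 12 arrays, deposited by the authors as linear signals with a 2% trimmed mean of 500.0 per array. The summarisation of probes, not given in the sources used here, was left as deposited. Here log2(intensity + 16) was quantile normalized. Without 64 control probe sets, 34945 probe sets named 1 gene in the platform annotation, and 10092 that named several or none were left out. The probe set with the highest mean over the arrays stood for each of 18193 genes, and HCC was compared with normal liver in limma 3.58.1 (lmFit and eBayes under R 4.3.3) by two-sided tests at an adjusted p of 0.05 (Benjamini-Hochberg). The number of arrays limits precision. On simulated data, 10%, 56%, 94% and 98% of 50 genes changed by 0.5, 1, 2 and 4 (log2) were called. Of 17993 unchanged genes there, 3 were called. Whether these shares hold for the members, of which 41 of 48 had a larger SD in HCC, was not tested.

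The members and lists were chosen with earlier results of these data known. Values per array are given for called members and the 3 largest differences of each role; up to 3 called genes of each related list are named, and others were chosen after their values were seen. Both groups are numbered 1 to 6, but the deviations of same-number arrays from their group means correlated at -0.0147 to 0.0778 only, so numbers were not taken as pairs. Alternatives were other scalings, pseudocounts of 1 and 64, leaving out dim genes, averaging probe sets, a trended robust variance, array weights, a replicate block, Y-linked signal, and leaving out arrays. Sequences are from RefSeq, GRCm38.p6.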

Additional observations from a re-analysis of the deposited data

Results flagged for a closer look

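Within groups of 6 arrays, 1 array lay far from the others in 19 of 96 groups examined. The nominal rate for independent groups is about 5 percent, and the share over all genes was not computed. In 15 of the 19 the array was HCC 6. Among collagens these were Col1a2 at 14.19, Col5a1 at 10.42, Col6a1 at 11.54, Col6a2 at 10.99 and Col6a3 at 12.17. Among glycoproteins they were Fn1 at 15.07, Postn at 12.86, Thbs1 at 10.04, Thbs2 at 8.94 and Tnc at 9.55. The remodelling genes Mmp2 at 9.04, Mmp12 at 12.66 and Loxl1 at 10.08, and Acta2 at 13.17 and Tgfb1 at 10.02, were the others, all of them high in HCC 6. Members share these arrays, so the groups are not independent. The 4 others were Vcan, low at 5.26 in HCC 5, and in normal 6 Col15a1, low at 6.38, Timp3, high at 9.69, and Vim, high at 11.35.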

How the results depend on the processing

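In refits of the 14 called members none turned its direction: of 168 refits with other settings 127 kept the call and 41 lost it, and of 168 that left out 1 array 115 kept it and 53 lost it. Col4a1, Col4a2, Fn1, Lrat, Mmp14, Nid1 and Sparc kept their call with each array left out. Members that rose numbered 9 to 14 and those that fell 2 or 3 under other scalings, pseudocounts, the dim-gene filter, the mean of probe sets, variance model, array weights, replicate block or Y-linked covariate. With 1 array left out they numbered 6 to 12 and 1 to 3. The 4 and 4 arrays with Y-linked signal gave 3 that rose and 2 that fell. The 2 and 2 without it gave 0 and 0 by limma (9 and 5 at an unadjusted p under 0.05). Both subsets hold fewer arrays, and the share of all genes at an unadjusted p under 0.05 was not computed for them. Of the related genes, 6 rose and 3 fell with Y-linked signal, and 2 and 0 without it (11 and 15 at an unadjusted p under 0.05). Related genes that fell numbered 3 in the deposited scaling and with a pseudocount of 1, 9 with array weights, and 3 to 8 with 1 array left out; the cause was not tested. HCC 6 was the highest tumour in 39 to 44 members under the other scalings, pseudocounts and the mean of probe sets. The members whose Y-linked interaction passed the test were 0 in these settings too.

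Same-number samples did not deviate together, so the replicate number was not taken as a pairing. With it as a block, 10 members rose and 2 fell, and 9 related genes rose and 4 fell; Fn1 (adjusted p = 0.0760), Dcn (0.0616) and Mmp14 (0.0634) lost their call and Col5a2 passed (0.0405, limma).

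Directions turned in members that had not passed the test. In the deposited scaling Col18a1 was -0.048 and Mmp2 0.13, with median centring -0.12 and 0.059. The mean of probe sets gave Col18a1 -0.12, Lamb1 0.056 and Thbs2 0.11, and a pseudocount of 64 gave Lamb1 0.023 and Mmp2 0.021. Arrays with Y-linked signal gave Lamb1 0.21, Postn 0.0019, Lum 0.073, Bgn 0.56, Vcan -0.32, Mmp2 0.088, Pdgfra 0.39 and Rgs5 0.082. Arrays without it gave Col5a1 -0.40, Col15a1 -0.090, Mmp9 0.030, Loxl1 -0.74, Tagln -0.31 and Pdgfrb -0.73. With 1 array left out the differences ranged from -0.18 to 0.32 for Col5a1, -0.21 to 0.42 for Col6a2, -0.71 to 0.34 for Lamb1, -0.997 to 0.051 for Postn, -0.52 to 0.10 for Thbs2 and -0.56 to 0.37 for Bgn. They ranged from -0.32 to 0.11 for Mmp2, -0.44 to 0.15 for Mmp9, -0.041 to 1.04 for Lox, -0.084 to 1.14 for Tagln, -0.69 to 0.029 for Pdgfra and -0.053 to 0.87 for Pdgfrb. The lowest value of Col5a1, Col6a2, Lox, Tagln and Pdgfrb came without HCC 6; other causes were not tested. Array number limits precision, and low levels near the floor of 4 (Col1a1, Tnc, Timp1 and Mmp12 in some normal livers, Lrat in HCC 1) understate changes.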

Other observations

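Marker lists of other cells gave few calls. None of 5 biliary markers passed (limma, 0 also at an unadjusted p under 0.05), with summed intensities of 426 to 609 in normal liver and 255 to 1045 in HCC. None of 6 lymphocyte markers passed (limma, 1 higher at an unadjusted p under 0.05), with sums of 336 to 575 in normal liver and 509 to 939 in HCC. Of 3 erythroid markers 1 rose, the anion exchanger Slc4a1, by 1.31 (limma adjusted p = 0.00552), and their sums were 402 to 4451 in normal liver and 768 to 3019 in HCC.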
